A study of Mus musculus with 20 samples.

Results

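T and Sp5, a pair of transcription factor genes switched on by WNT signalling in the primitive streak, were followed across 5 groups of mouse cells by RNA sequencing. They were chosen as the entries with these symbols in an expression table of 10 libraries and were traced by identifier into the count files. They are 2 of the 11767 transcript models that carry a gene name, out of 55419 models counted. Each symbol had 1 model. T is uc008ajq.1 at chr17:8627288-8635361 and Sp5 is uc008jzg.1 at chr2:70312980-70315783, both on the mouse assembly mm9. Neither lies in a region probed by the chromosome conformation libraries of the same series, which are not analysed here. The nearest, around Oct4, starts 25.8 Mb from T.

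The groups had 2 RNA libraries each. ES cells were of the V6.5 line (129SvJae x C57BL/6), kept in pluripotency medium with LIF. ES cells in 2i were the same line in a serum-free medium with LIF, the GSK3 inhibitor CHIR99021 and the MEK inhibitor PD0325901. Neural progenitor cells (NPC) were isolated at postnatal day 1 from Sox2-eGFP mouse brains (129SvJae x C57BL/6), formed neurospheres and were cultured with EGF and FGF. Induced pluripotent stem (iPS) cells were derived from such NPC and kept in medium with 15% fetal bovine serum and LIF, and iPS cells in 2i were moved to the 2i medium. ES and iPS cells had been expanded on mouse feeder cells, which passages on gelatin were meant to remove. The 2i medium adds both inhibitors and has no serum. The parts played by the GSK3 inhibitor, the MEK inhibitor and any loss of serum therefore cannot be told apart. A serum percentage was recorded for iPS cells without 2i and for no other group. Between iPS and ES cells, line, origin and any difference in medium cannot be told apart either. Whether the 2 replicates of a group were separate cultures is not stated, so a p-value here may reflect technical spread alone.

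In the canonical WNT pathway, GSK3 in the destruction complex marks beta-catenin for degradation. A WNT ligand or a GSK3 inhibitor stabilises beta-catenin, which joins TCF and LEF factors at target promoters and relieves repression by TCF7L1. T (Brachyury), the founding T-box factor, marks the primitive streak and is needed for mesoderm and notochord. Sp5 is a zinc finger factor of the Sp family that is induced by WNT signalling and acts as a repressor of other targets. In the embryo FGF and ERK signalling, which a MEK inhibitor blocks, also takes part in the expression of T.

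The 250 bases before the RefSeq start of each gene are shown because the stretch just before a start can hold TCF and LEF binding letters. They are from GRCm38.p6, + strand, at chr17:8434173-8434422 for T and chr2:70474673-70474922 for Sp5. Capitals mark each run that reads as CTTTGTT, or as CTTTGAT, or as CTTTGTA, or as CTTTGAA on either strand, and overlapping matches would each be counted.
T: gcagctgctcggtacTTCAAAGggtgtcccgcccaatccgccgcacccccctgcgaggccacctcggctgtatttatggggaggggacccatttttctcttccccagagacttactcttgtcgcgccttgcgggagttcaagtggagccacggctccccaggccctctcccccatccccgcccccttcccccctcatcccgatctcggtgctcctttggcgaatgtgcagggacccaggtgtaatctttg
Sp5: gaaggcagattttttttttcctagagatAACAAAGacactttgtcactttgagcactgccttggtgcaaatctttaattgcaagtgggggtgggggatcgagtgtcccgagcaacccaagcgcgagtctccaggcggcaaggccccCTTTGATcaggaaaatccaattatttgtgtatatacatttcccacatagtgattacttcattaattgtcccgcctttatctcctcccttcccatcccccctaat
T held 1 match, TTCAAAG, from 235 to 229 bases before the start. Sp5 held 2, AACAAAG from 222 to 216 and CTTTGAT from 104 to 98 bases before the start. Of 32851 mouse promoter windows of this length, 14.8% held at least 1 match and 1.43% held 2 or more. Of 15 WNT target symbols with an entry, 6 had a match in at least 1 of their windows, T and Sp5 among them. A symbol had up to 4 windows, so this count cannot be set against the share per window. Axin2 and Cdx2, which are also WNT targets, had none in this window. A match of letters is a description of the sequence and not a measured site. RefSeq lists another protein-coding model across the start of T, and the strand setting of the authors' counting is not given in the sources used here, so reads from it could not be told apart from those of T.

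Assigned reads ranged from 1.15M to 17.3M per library, and reads in no model from 26.5% to 86.6%. Reads set aside as ambiguous made up 6.00% (NPC replicate 1) to 35.6% (ES replicate 1). NPC replicate 1 was the shallowest library and had the highest share of reads in no model. Replicates correlated at 0.960 to 0.989 over models. The level of a gene is here that of 1 model, without ambiguous reads, and may fall short of the whole gene. Of the pluripotency markers 7 of 8 had a named model. Their summed level was 4187 to 6621 CPM (the usual count relative to library size, here after TMM scaling) in the libraries of the 4 stem cell groups, and all 7 were at 0 in NPC. The 6 named neural progenitor markers of 10 summed to 7424 to 8933 CPM in NPC and to at most 82.2 CPM elsewhere.

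T was most abundant in iPS cells, lower in ES cells and close to the detection limit in both 2i groups and in NPC. The ES libraries gave 76 and 16 reads, which are 4.27 and 4.21 CPM. The iPS libraries gave 44 and 75 reads, 9.07 and 12.8 CPM. In 2i the ES libraries gave 12 and 5 reads, 0.752 and 0.325 CPM, and the iPS libraries 3 and 5 reads, 0.615 and 0.507 CPM. NPC gave 0 and 1 reads, 0 and 0.290 CPM. The ES and iPS values did not overlap with each other or with those of any other group. With 2 libraries per group this is a weak criterion, and how many other models met it was not counted. The ES replicates differed in depth, at 17.3M and 3.73M reads, and in reads in no model, at 26.5% and 81.5%, while their levels of T had an SD of 0.0373 CPM (n = 2). The 16 reads of replicate 2 give a counting interval of 2.41 to 6.84 CPM, much wider than that gap. In bulk RNA, fewer cells that express a gene and less RNA per cell cannot be told apart.

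Sp5 followed the same order of groups above the detection limit. ES cells gave 61 and 11 reads, 3.42 and 2.90 CPM, and iPS cells 64 and 101 reads, 13.2 and 17.2 CPM. ES cells in 2i gave 6 reads in each library, 0.376 and 0.390 CPM, and iPS cells in 2i gave 3 and 4 reads, 0.615 and 0.406 CPM. NPC again gave 0 and 1 reads, 0 and 0.290 CPM. As for T, and with the same limit, the ES and iPS libraries each stood apart from all others. The 3 low groups rested on a handful of reads per library.

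**Figure D1:**
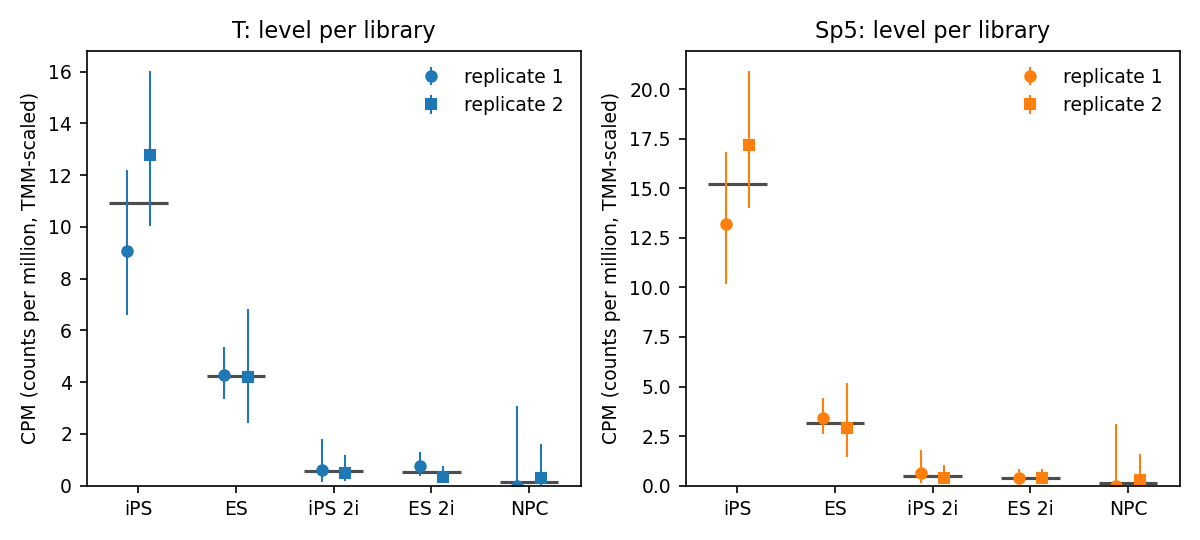
Level of T (left) and Sp5 (right) in CPM for each of the 10 libraries, with exact Poisson 95% intervals that cover counting error only. Horizontal lines are means of 2 libraries. iPS cells averaged 10.9 CPM for T and 15.2 CPM for Sp5, and no library in 2i or of NPC reached 1 CPM.

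The first comparison asked how 2i medium changed the genes in ES cells. Both fell. T went from 4.24 ± 0.0373 to 0.538 ± 0.302 CPM and Sp5 from 3.16 ± 0.373 to 0.383 ± 0.00962 CPM (SD, n = 2). From the summed reads, T was 7.85-fold lower in 2i (95% counting interval 4.65 to 14.1) and Sp5 8.71-fold lower (4.69 to 17.6). In edgeR's quasi-likelihood test with Benjamini-Hochberg adjustment over all 11031 models tested, the log2 change of T was -2.52 (SE 0.364, adjusted p = 2.65e-06) and that of Sp5 -2.49 (SE 0.359, adjusted p = 2.63e-06). These log2 values use a prior count of 2, which shrinks the changes of genes with few reads. In this comparison 24.5% of all models were called in either direction, with 11.3% higher and 13.2% lower.

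The second comparison was the same change of medium in iPS cells, and both genes fell again. T went from 10.9 ± 2.61 to 0.561 ± 0.0761 CPM and Sp5 from 15.2 ± 2.83 to 0.510 ± 0.148 CPM (SD, n = 2). From the summed reads T was 20.4-fold lower (95% counting interval 10.04 to 48.4) and Sp5 32.4-fold lower (15.4 to 81.8). The log2 change was -3.84 for T (SE 0.419, edgeR adjusted p = 7.58e-09) and -4.43 for Sp5 (SE 0.395, edgeR adjusted p = 1.21e-10). Of all models 42.6% were called in this comparison, 21.1% higher and 21.5% lower.

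The fall in iPS cells was tested against the fall in ES cells with the difference of the 2 changes. That difference was -1.31 for T (95% interval -2.75 to 0.13, edgeR adjusted p = 0.174) and -1.94 for Sp5 (-3.50 to -0.37, unadjusted p = 0.0169, edgeR adjusted p = 0.0591). Neither passed the threshold of 0.05, while 27.3% of all models did. By size the differences were among the more negative. Of all models 8.34% had a value at or below that of T and 3.10% at or below that of Sp5. The SE was 0.705 for T and 0.766 for Sp5, with 3 to 12 reads per library in 2i, so a sizeable difference could be missed. The intervals are approximate, with an SE taken from the log2 change and the F statistic. For Sp5 the interval before adjustment does not include 0, so the size of the response in the 2 cell types was not shown to be alike.

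Where the groups started and ended was compared directly. Without 2i both genes were higher in iPS than in ES cells, T 2.61-fold (95% counting interval 1.97 to 3.46) and Sp5 4.62-fold (3.48 to 6.18). The log2 differences were 1.32 for T (SE 0.324, edgeR adjusted p = 0.000943) and 2.14 for Sp5 (SE 0.308, edgeR adjusted p = 6.63e-07). In that comparison 52.9% of models were called, 25.9% higher and 26.9% lower. In 2i no difference between iPS and ES cells was detected. The ratio of iPS to ES cells in 2i was 1.00 for T (0.374 to 2.45, edgeR adjusted p = 1) and 1.24 for Sp5 (0.414 to 3.42, edgeR adjusted p = 0.786), and 25.3% of models were called. At 7 to 17 summed reads per group these intervals still allow differences of more than 2-fold in either direction.

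The iPS cells were made from NPC, where 1 read of each gene was seen over both libraries. Had NPC held T at the ES level, the libraries would have given 5.06 and 14.6 reads, and for Sp5 3.78 and 10.9 reads. With 0 and 1 reads seen, the ratio of ES cells to NPC was 19.8 for T (95% counting interval 3.46 to 790) and 15.5 for Sp5 (2.69 to 620). NPC against ES cells was called lower for T (log2 change -3.31, edgeR adjusted p = 0.00014) and Sp5 (-2.95, edgeR adjusted p = 0.000414), where 61% of models were called and 33.7% called lower. In iPS cells against NPC both were called higher, T by 4.63 (edgeR adjusted p = 3.21e-07) and Sp5 by 5.09 (edgeR adjusted p = 1.06e-08) on the log2 scale, with 51.3% of models called and 29.3% called higher. Without NPC replicate 2, which leaves 1 NPC library with 0 reads of either gene, the changes from ES cells to NPC became -4.32 for T (edgeR adjusted p = 0.0135) and -3.97 for Sp5 (edgeR adjusted p = 0.02), and those from NPC to iPS cells 5.53 and 6.00. Against 0 reads these fitted values depend on the prior count and are no bounds. The median over all models was -0.20 for NPC against ES cells and 0.15 for iPS cells against NPC, small beside these changes. A count of 0 in NPC replicate 1 allows up to 2.51 CPM at 3 counts, so NPC and the 2i groups were not separable at this depth, and they were not tested against each other.

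**Figure D2:**
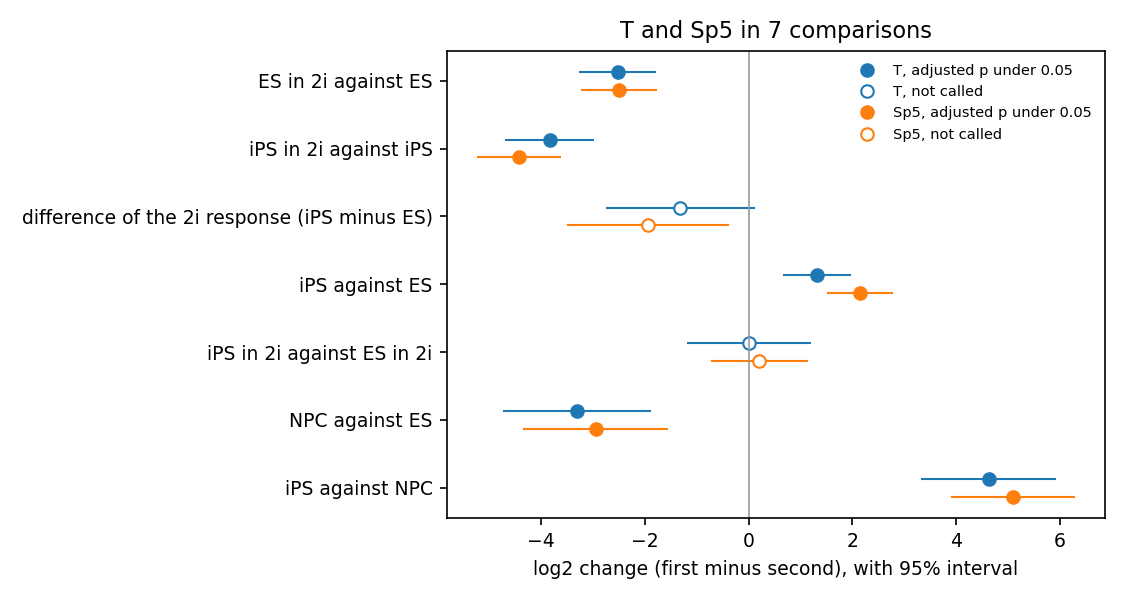
Log2 change of T and Sp5 in 7 comparisons (first group minus second), with approximate 95% intervals from edgeR's fit of all 10 libraries. Filled points have an adjusted p under 0.05, and the open points are the difference of the 2i response and iPS against ES cells in 2i.

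The authors' deposited table gave another order for the low groups. Its values equal log2(count + 1) plus 1 constant per library, to within 5.2e-05, and the constants bring the upper quartile of every library to 7.43. A model with 0 reads therefore has a different value in each library, from -1.88 in ES replicate 1 to 2.08 in NPC replicate 1. In the authors' deposited table T averaged 1.78 in NPC, 1.52 in ES cells in 2i and 1.81 in iPS cells in 2i. For T, NPC thus stood above ES cells in 2i and still below iPS cells in 2i. Sp5 averaged 1.78 in NPC, 1.18 in ES cells in 2i and 1.68 in iPS cells in 2i. T in NPC replicate 1, with 0 reads, was listed at 2.08, and in ES replicate 1 in 2i, with 12 reads, at 2.04. The mean CPM of NPC was below that of both 2i groups for both genes, at read counts too low to rank these 3 groups. The high groups kept their order, with T at 5.74 in iPS and 4.40 in ES cells and Sp5 at 6.21 and 4.00.

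**Figure D3:**
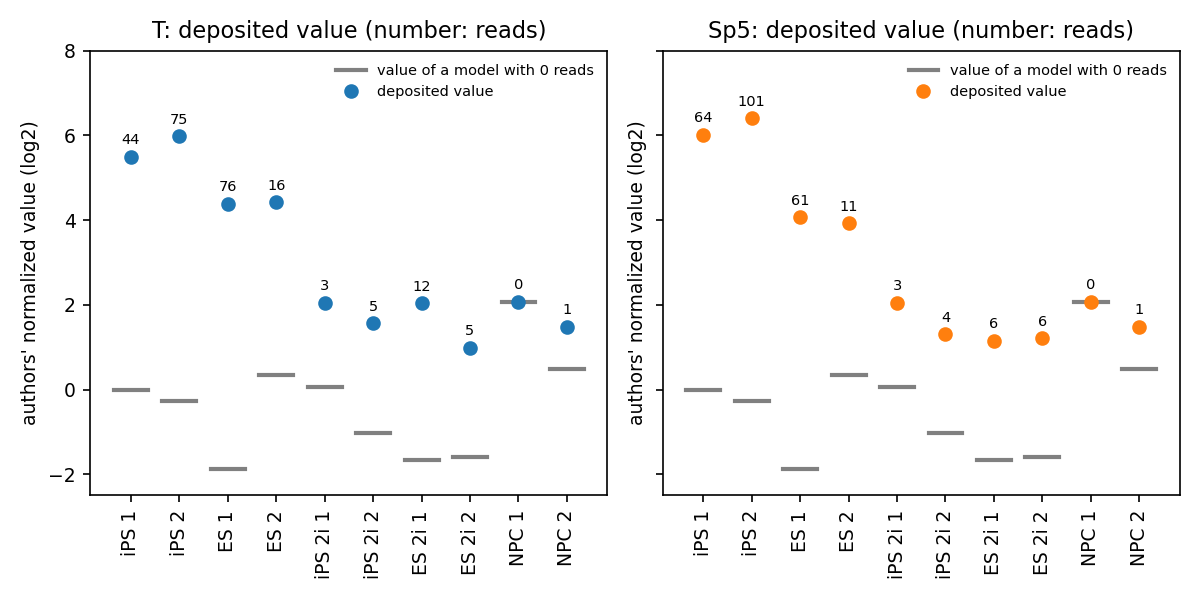
Deposited log2 value of T (left) and Sp5 (right) in each library, with the read count above each point and a grey bar at the value that a model with 0 reads takes in that library. In NPC replicate 1 the point lies on its bar at 2.08, and in ES replicate 1 in 2i 12 reads of T lie well above theirs at -1.66.

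The other WNT targets did not move as a block with T and Sp5. Of 22 symbols listed as WNT targets or feedback genes, 15 had a named model, and all 15 passed the low-count filter. In ES cells in 2i 1 was called higher and 5 lower, with a median log2 change of -0.15 beside 0.0025 over all models. Of all models 11.3% were called higher there and 13.2% lower. Notum, a secreted WNT-inactivating enzyme, rose from 11.2 ± 0.917 to 23.7 ± 6.05 CPM (log2 change 1.09). Beside T and Sp5, the caudal homeobox gene Cdx2 fell by 2.54 and the stem cell factor Ascl2 fell by 2.35 on the log2 scale. Rnf43, a ubiquitin ligase that removes WNT receptors, was the remaining lower gene, at -1.46 (edgeR adjusted p = 0.0284), and is named after its values were seen.

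In iPS cells in 2i 3 targets were called higher and 6 lower, with a median of -0.59 beside 0.03 over all models. Of all models 21.1% were called higher there and 21.5% lower. Lef1, a partner of beta-catenin, rose from 1.15 ± 0.419 to 5.00 ± 1.05 CPM (log2 change 1.91), and Notum rose by 1.35. Ascl2 rose by 1.20, opposite to its change in ES cells, and the difference of its changes was 3.56 (edgeR adjusted p = 1.3e-07). Beside T and Sp5, the WNT antagonist Apcdd1 fell by 3.01, Cdx2 fell by 2.76 and Cdx1 fell by 0.77. The sixth, the cyclin gene Ccnd1, fell by 1.34 and is named after its values were seen. Axin2, a feedback inhibitor widely used as a WNT readout, was not called in either cell type. It measured 11.1 ± 0.307 CPM in ES cells and 11.4 ± 1.77 in 2i (log2 change 0.04, edgeR adjusted p = 0.916), and 10.6 ± 0.147 CPM in iPS cells and 6.98 ± 0.311 in 2i (-0.58, edgeR adjusted p = 0.0591). Tcf7 was not called either, at -0.43 in ES and -0.11 in iPS cells. Without T and Sp5, 1 higher and 3 lower of 13 remained in ES cells, and 3 higher and 4 lower in iPS cells.

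**Figure D4:**
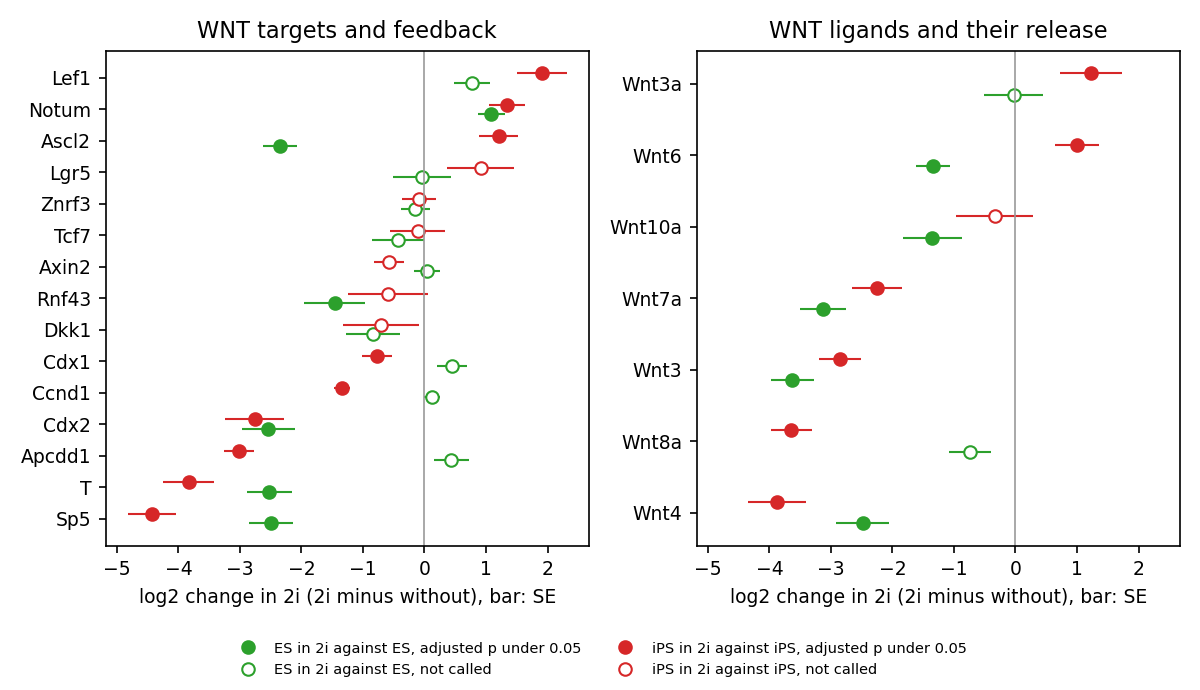
Log2 change in 2i of the measured WNT targets (left) and WNT ligands (right), in ES cells (green) and iPS cells (red), with bars of 1 SE from edgeR's fit and filled points for an adjusted p under 0.05. T and Sp5 lie near the low end in both cell types, while Notum lies above 0 in both and Ascl2 on opposite sides.

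The ligands that feed the pathway also changed. Of 22 listed genes for WNT ligands and their release, 8 had a named model and 7 passed the filter. In ES cells in 2i none was called higher and 5 were called lower, with a median log2 change of -1.35. Of all models 11.3% were called higher there and 13.2% lower. Wnt3, which is needed for the primitive streak, went from 5.92 ± 0.195 to 0.254 ± 0.0838 CPM in ES cells (log2 change -3.63) and from 13.8 ± 0.899 to 1.73 ± 0.157 CPM in iPS cells (-2.86). Wnt4 fell by 2.49 in ES cells and fell by 3.87 in iPS cells, and Wnt10a fell by 1.35 in ES cells. Wnt7a stood at 2.04 CPM in ES cells and 0.0313 in 2i (1 and 0 reads), and at 3.83 and 0.664 in iPS cells. Wnt8a, a streak-stage ligand, fell by 3.64 in iPS cells and was not called in ES cells (-0.74, edgeR adjusted p = 0.115). In iPS cells 4 were called lower and 2 higher, with a median of -2.25, beside 21.5% and 21.1% of all models. The higher pair was Wnt3a (1.23) and Wnt6 (1.00), and Wnt6 was the fifth lower gene in ES cells (-1.34). These 2 are named after their values were seen.

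Of the WNT receptors 14 of 18 passed the filter. In ES cells 1 was called higher and 3 lower. Fzd9 rose by 1.46, while Fzd7 fell by 1.06, Fzd1 fell by 0.59 and the WNT5A receptor gene Ror1 fell by 1.60. In iPS cells 1 was called higher and 6 lower, among them Lgr6 (-1.82), Fzd8 (-1.63), Ror2 (-1.60) and the co-receptor Lrp5 (-1.09). The higher one, Lgr4 (0.85), is named after its values were seen. These are 4 of 14 receptors called in ES cells beside 24.5% of all models, and 7 of 14 in iPS cells beside 42.6%, so neither count stands out from the background. Of the secreted inhibitors 6 of 14 passed, and the same 24.5% and 42.6% of all models stand beside their calls. In ES cells Notum was the single call, and in iPS cells Sfrp1, which binds WNT ligands, rose by 1.72 and Sfrp2 fell by 0.90, beside the changes of Notum and Apcdd1 given above.

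Of the genes of the beta-catenin destruction complex, which holds GSK3, 11 of 15 passed the filter. Gsk3b, which codes for a target of the inhibitor, measured 51.4 ± 3.64 CPM in ES cells and 46.5 ± 9.97 in 2i (log2 change -0.13, edgeR adjusted p = 0.584), and 43.5 ± 6.39 and 36.1 ± 0.321 CPM in iPS cells (-0.27, edgeR adjusted p = 0.205). The inhibitor acts on the enzyme and the RNA level does not measure its activity. The only call in ES cells was Apc2 (-1.61). In iPS cells Apc rose by 1.25, and Dvl3 (-2.03), Apc2 (-1.51) and Gsk3a (-0.83) fell. The calls, 1 of 11 in ES cells and 4 of 11 in iPS cells, were no more frequent than over all models (24.5% and 42.6%). The model that stood for Ctnnb1, which codes for beta-catenin, measured 5.91 ± 0.579 CPM in ES cells and 5.78 ± 1.09 in 2i. In iPS cells it measured 6.34 ± 1.38 and 5.85 ± 2.77 CPM, and it was called in neither cell type. The level of this model leaves out ambiguous reads and may fall short of the whole gene. Of the nuclear partners of beta-catenin 9 of 16 passed. In ES cells Pygo1 (1.02) was the single call, and in iPS cells Lef1 and the corepressor Tle1 (1.46) rose while Bcl9l (-1.75) and Pygo2 (-0.81) fell.

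Genes described as repressed by TCF7L1 in ES cells were measured for 3 of 6 symbols. None was called in ES cells in 2i, where 24.5% of all models were called. All 3 were called higher in iPS cells in 2i, where 21.1% of all models were called higher. Tcfcp2l1, a naive pluripotency factor, went from 56.7 ± 21.9 to 454 ± 72.0 CPM in iPS cells (log2 change 2.99). Esrrb rose by 2.52 there, from 0 and 4 reads in the iPS libraries to 13 and 36 reads in 2i, and Klf2 rose by 0.41. These genes and the pair T and Sp5 thus changed in opposite directions in iPS cells. Their starting levels differed too. Without 2i all 3 were called lower in iPS than in ES cells, where 26.9% of all models were called lower. Tcfcp2l1 stood at 1321 ± 84.6 CPM in ES cells and Esrrb at 4.32 ± 0.156 CPM, so neither reached the ES level in iPS cells in 2i.

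Of the primitive streak and mesendoderm genes 10 of 24 passed the filter. Their calls stand beside 11.3% higher and 13.2% lower over all models in ES cells, and 21.1% and 21.5% in iPS cells. In ES cells none was called higher and 5 lower, with a median of -0.85, and these were T, Wnt3, Cdx2, the endothelial receptor gene Kdr (-2.29) and, named after its values were seen, the NODAL inhibitor gene Lefty2 (-1.19). In iPS cells 2 were called higher and 5 lower, with a median of -0.64. The higher ones were the somite factor Mesp2 (0.88) and Nodal (0.35), and the lower ones were T, Wnt3, Cdx1, Cdx2 and Lefty2 (-0.49). Nodal, a ligand needed for the streak, stayed at 201 ± 23.1 and 177 ± 17.7 CPM in ES cells with no call. Mixl1, a streak homeobox gene, was not called, at 2.77 ± 0.183 and 2.26 ± 0.102 CPM in ES cells and 1.94 ± 1.05 and 1.17 ± 0.208 CPM in iPS cells. Among T-box genes, Tbx15 and Tbx18 were lower in 2i in both cell types along with T, by -1.34 and -1.15 in ES cells and -2.18 and -1.06 in iPS cells, and these 3 were of 4 that passed among 17 listed.

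ERK signalling, which the MEK inhibitor blocks, induces a set of feedback and immediate early genes, of which 13 of 15 passed. In ES cells 1 was called higher and 9 lower, with a median of -1.18, and in iPS cells 1 higher and 7 lower, with a median of -0.74. Over all models 11.3% were called higher and 13.2% lower in ES cells, and 21.1% and 21.5% in iPS cells. Egr1, an immediate early factor, fell from 21.3 ± 4.84 to 1.43 ± 0.189 CPM in ES cells and from 23.2 ± 1.88 to 2.24 ± 0.0159 CPM in iPS cells. Dusp4, a phosphatase of ERK, fell by 2.07 in ES cells and fell by 2.59 in iPS cells on the log2 scale. Fosl1 fell by 2.52 in ES cells and fell by 1.11 in iPS cells, and Spry4 fell by 1.59 in ES cells and was not called in iPS cells (0.20). The higher gene was the ETS factor Etv4 in both (0.91 and 1.18), named after its values were seen. Of genes of the primed and formative epiblast 10 of 14 passed. In ES cells 1 was called higher and 4 lower, and in iPS cells 5 higher and 5 lower, beside the same shares of all models. Pou3f1 fell by 2.52 and fell by 2.82, Sox3 fell by 1.84 and fell by 3.02 and Lefty1 fell by 1.93 and fell by 4.36, while Zic2 rose by 2.50 in ES cells and fell by 1.80 in iPS cells. Sox4 (-0.71 and -0.88) was the remaining lower gene in both. The higher genes in iPS cells were Lef1, Foxd3 (1.35), Fgf4 (1.09), Utf1 (0.69) and Nodal. Sox4, Foxd3, Fgf4 and Utf1 are named after their values were seen.

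The summed fibroblast and trophoblast markers moved with T and Sp5, though not every marker did. The 7 named fibroblast markers of 10 summed to 1211 to 1401 CPM in ES cells, 444 to 455 in ES cells in 2i, 2749 to 2950 in iPS cells, 911 to 928 in iPS cells in 2i and 75.3 to 105 in NPC, and none of the 7 was at 0 in any group. In ES cells in 2i, Acta2 (-2.24), Tagln (-2.71) and Thy1 (-2.20) were called lower and the collagen genes Col3a1 (2.76) and Col1a2 (0.49) higher. In iPS cells in 2i, 5 were called lower, these 3 with Col1a1 (-1.48) and Col1a2 (-0.69), and Col3a1 (1.07) was called higher. Over all models 13.2% were called lower in ES cells in 2i and 21.5% in iPS cells in 2i. The 3 named trophoblast markers of 8 (Cdx2, Krt8 and Krt18) summed to 310 to 346 CPM in ES cells, 37.1 to 38.9 in ES cells in 2i, 705 to 890 in iPS cells and 57.0 to 63.3 in iPS cells in 2i. All 3 were at 0 in NPC and lower in 2i in both cell types. The 3 named primitive endoderm markers of 8 followed another order, at 7.90 to 9.77 CPM in ES cells, 4.87 to 5.01 in ES cells in 2i, 2.06 to 4.09 in iPS cells, 3.86 to 4.51 in iPS cells in 2i and 1.16 to 2.51 in NPC, with Gata6 at 0 in NPC. Of the 2 that passed the filter, Gata6 was called lower in ES cells in 2i (-0.98) and Sox7 higher in iPS cells in 2i (1.61). Krt8 and Krt18 also mark other epithelial cells, and Cdx2 is also on the list of WNT targets. The part of these cell types in the changes of T and Sp5 was not tested.

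The models most like each gene were taken by Pearson's r of log2 CPM over the 10 libraries, among 10354 other named models. Sp5 was second for T (r = 0.985), and T was first for Sp5. T was closest to Mmachc, a gene of vitamin B12 metabolism (r = 0.986), and next after Sp5 to the secreted matrix protein gene Cyr61 (r = 0.984), the chemokine receptor gene Cxcr7 (r = 0.973) and Ch25h, a cholesterol hydroxylase (r = 0.971). Sp5 was followed by Cyr61 (r = 0.980), Cxcr7 (r = 0.965), the ephrin receptor gene Epha8 (r = 0.961) and the sialomucin gene Podxl (r = 0.959). These coefficients describe 10 libraries in 5 groups that all these genes share. Cyr61 averaged 213 CPM in ES cells, 113 in ES cells in 2i, 298 in iPS cells, 109 in iPS cells in 2i and 77.8 in NPC. Its log2 change in 2i was -0.91 in ES cells and -1.46 in iPS cells, smaller than the changes of T and Sp5 given above, a contrast that was not tested.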

How the data were processed

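Total RNA (350 ng per library, stranded kit with ribosomal RNA depletion, 75 cycles per end, per the labels' protocols) was sequenced for 10 libraries. The authors deposited whole-number counts per transcript model. Per the submitters' processing notes, TopHat, TopHat2 2.1.0, HTSeq and the assembly mm9 were used. The deposited counts list ambiguous reads in an entry of their own, apart from the models. The authors also deposited a log2 table of named models, which gave symbols and positions. Linear values had been foreseen there, so the alternatives on it with 1 or 0.1 added used 2 to the power of each value.

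Counts were fitted with edgeR 4.0.16 in R 4.3.3 (quasi-likelihood F test, TMM scaling, expression filter by group, prior count 2), with all 10 libraries and no term other than the group (5 residual degrees of freedom). The filter kept 11031 models and left out 44388. The 92 spike-in and 5 summary entries were left out. The threshold was a Benjamini-Hochberg adjusted p of 0.05. The SE is the log2 change over the square root of F. On data simulated for ES cells in 2i against ES cells (11031 genes, 200 changed by 3 on the log2 scale), edgeR recovered 91.5% with 8 false calls. Counting intervals are exact 95% Poisson or binomial intervals and cover counting error only, since amplified reads are not independent molecules. DESeq2 1.42.0, limma 3.58.1, RLE scaling, no filter, sums per symbol, the compared libraries alone, a replicate block and left-out libraries were alternatives.

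Where a symbol had several models, the one with the most reads on average stood for it. Named are T and Sp5, at most 4 called members per list and 2i comparison by size of change, Axin2, Lef1, Tcf7, Cdx1, Cdx2, Mixl1, Nodal, Gsk3b and Ctnnb1 whatever their values, and the 5 models most like each gene. Eomes, Fgf8 and Tcf7l1 were to be named too and had no named model here. T, Sp5 and the lists were chosen with earlier results of these data known. Promoter sequences are from RefSeq (GRCm38.p6), matched by symbol for both genes.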

Additional observations from a re-analysis of the deposited data

Results flagged for a closer look

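Of the 54 genes named by rule, 24 responded differently to 2i in iPS and in ES cells, by edgeR's test of the difference of the 2 changes (adjusted p under 0.05). T and Sp5 were not among them. Values are the log2 change in iPS cells minus that in ES cells. Most of these genes were named because they changed in 1 of the 2 comparisons, so their share cannot be read against that of all models.

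In 13 genes the change was more negative in iPS cells. These were Zic2 (-4.30), Apcdd1 (-3.45), Wnt8a (-2.90), Bcl9l (-2.63), Lefty1 (-2.42), Fzd9 (-2.16), Fzd8 (-2.10), Ror2 (-1.87), Dvl3 (-1.86), Cdx1 (-1.22), Fos (-1.10), Gsk3a (-0.76) and Dusp4 (-0.52). Zic2 rose in ES cells (2.50) and fell in iPS cells (-1.80), and Fzd9 likewise (1.46 and -0.70). Bcl9l rested on few reads per library, with 5 and 0 in ES cells and 11 and 8 in ES cells in 2i. In iPS cells Bcl9l had 11 and 9 reads, and in iPS cells in 2i 0 and 6.

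In 11 genes the change was more positive in iPS cells. These were Ascl2 (3.56), Tcfcp2l1 (3.39), Esrrb (1.86), Spry4 (1.79), Sfrp1 (1.67), Fosl1 (1.41), Mesp2 (1.38), Apc (1.36), Fzd7 (0.92), Wnt7a (0.88) and Nodal (0.54). Ascl2 fell in ES cells (-2.35) and rose in iPS cells (1.20). Wnt7a and Fosl1 fell in both cell types and fell less in iPS cells. Wnt7a had 1 and 0 reads in ES cells in 2i, so the size of its difference depends on the prior count.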

How the results depend on the processing

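Of 202 recomputed log2 changes of T and Sp5, 197 kept their direction and their side of the threshold. The other 5 were T in iPS against ES cells in 2i and Sp5 in the difference of the 2i response. T in iPS against ES cells in 2i, at 0.01, turned to -0.038 with no low-count filter, to -4.4e-06 with the replicate block and to between -0.33 (without ES replicate 2 in 2i) and 0.43 (without ES replicate 1 in 2i) when libraries were left out, and was never called. The difference of the 2i response of Sp5 passed with limma on the authors' linear values plus 1 (-1.78, adjusted p = 0.0308), within a range of adjusted p from 0.0308 to 0.299. The cause was not tested. The changes of T and Sp5 in 2i were called in every alternative run, at -2.99 to -2.15 and -3.09 to -2.27 in ES cells and -4.31 to -3.57 and -4.97 to -4.12 in iPS cells. NPC against ES cells ranged from -4.32 to -2.32 for T and from -3.97 to -1.93 for Sp5, and iPS cells against NPC from 3.61 to 5.53 and from 4.08 to 6.00, called in each. For iPS against ES cells without 2i the range was 1.05 to 1.54 for T and 1.93 to 2.32 for Sp5. T was lowest there without iPS replicate 2. With DESeq2 its change was 1.37 (adjusted p = 0.0155), a weaker call than in the fit reported.

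Of 102 counts of called models, 85 stayed within 1.5 times the count of the fit reported. In ES cells in 2i the count of 2705 became 998, 903 and 902 with limma on the authors' values plus 1, plus 0.1 and as deposited, and 1620 with limma on log2 CPM with a trend. In iPS cells in 2i 4701 became 3016 and 2979 with the authors' values plus 0.1 and as deposited. For the difference of the 2i response 3011 became 1023, 779 and 746, and for iPS against ES cells in 2i 2794 became 544, 462 and 465, and 1546 with the trend. The fits on deposited values and with the trend were chosen after seeing the data, other than the plus 1 and plus 0.1. Leaving out a library gave 1803 (without ES replicate 1) to 2426 models in ES cells in 2i, 1469 (without ES replicate 1 in 2i) to 2653 for iPS against ES cells in 2i, where 1476 were called without iPS replicate 1 in 2i, and 2003 (without iPS replicate 1) to 3174 for the difference. An arm left with 1 library was assumed to vary like the other groups.

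The replicate block gave -2.53 for T and -2.51 for Sp5 in ES cells and changed no other call of these genes. Deviations of same-numbered libraries correlated at -0.0801 to 0.0722, so no effect tied to the replicate number was seen. With 2 libraries per group at unlike depths this check can miss a shared batch, and it does not settle the pairing. Without scaling, T in ES cells was 4.36 CPM and Sp5 in ES cells in 2i 0.400 CPM, beyond 1 SD of the 2 libraries, and the other 18 recomputed levels moved less. The authors' values were not run as levels, being on another scale. With the compared libraries alone, T and Sp5 did not pass the low-count filter in iPS against ES cells in 2i, so that value was not run. Depth limits the 2i and NPC levels, which rest on 0 to 12 reads per library.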

Other observations

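T2, a named model 11.7 kb before T on mm9 (chr17:8565261-8615591), was highest in NPC. It measured 9.21 and 6.66 CPM in the NPC libraries (11 and 23 reads) and at most 1.02 CPM in any other library. The NPC values did not overlap with those of any other group, and how many models shared this was not counted. NPC against ES cells gave a log2 change of 3.80 (edgeR adjusted p = 4.52e-06), and 2i changed it by -0.38 in ES and -0.13 in iPS cells, with no call. T2 was chosen for its position.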
